A study of Mus musculus with 6 samples.

Results

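Slc16a6, a transporter gene, and 5 genes of metabolic enzymes that are widely used as reference genes, Alas1, G6pdx, Hprt, Sdha and Gusb, were followed in macrophages grown from mouse bone marrow. They were found by symbol among the 753 gene rows of the deposited table, and all 6 were present. Macrophages of wild-type mice (control, n = 3) were set beside macrophages of mice that lack complement factor H (FHKO, n = 3), a soluble regulator of complement. The labels give genotype as the only difference and no other treatment. Knockout mice were aged 8 to 10 weeks, and no separate age is given for the control mice. No strain background, sex or number of animals pooled is given for either group. Nothing in the labels says that the 3 libraries of a group came from separate animals, so the spread between libraries may be technical.

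Resting macrophages take up and release small metabolites, make haem for their oxidases and respiratory chain, and draw NADPH from the pentose phosphate pathway. Purine bases are recycled by salvage enzymes, succinate is oxidised in the mitochondrion, and sugar chains of ingested material are cut in the lysosome. The 6 genes each encode a protein at such a point, and 5 of them are often assumed to be steady enough to scale other genes. That assumption matters here, because Alas1 and Hprt took part in the scaling of the deposited values.

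Recovered counts summed to between 717503 and 1348064 per library over the gene rows. The values are counts multiplied by 1 factor per library (0.832 to 1.45), called normalised counts below. Negative-control rows averaged 8.38 to 14.8 counts, and their mean plus 2 SD lay between 16.5 and 29.1 on the normalised scale. All 6 genes were at least 3.25 times above that limit in every library, and Slc16a6 came closest to it. A filter that asked for a normalised count of 20 in 3 or more libraries left 490 genes for testing, the 6 among them. Of 10 macrophage marker genes 9 were measured and all 9 passed that filter, with summed normalised counts of 59795 to 65187 in control and 61739 to 63556 in FHKO libraries. Of 8 neutrophil markers measured 3 passed (S100a8, S100a9 and Csf3r), with sums of 300 to 343 in control and 283 to 375 in FHKO libraries. None of the measured markers of B cells, NK cells, dendritic cells or mast cells passed it. Only 1 of 6 listed markers was measured for B cells, 1 of 6 for NK cells and none of those listed for T cells. Little can therefore be said of lymphocytes. Of 6 endothelial and stromal markers measured Col4a1 and Vcam1 passed, with sums over the 6 of 131 to 156 in control and 97.7 to 157 in FHKO libraries. The megakaryocyte marker Pf4 also passed, at 426 to 464 in control and 402 to 584 in FHKO libraries. The part of other cells in the results was not tested.

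The 6 genes were chosen by name with results of the same comparison known, Slc16a6 for its place among the genes of small p and the others as metabolic reference genes. Their differences between the groups are therefore a description and are given without a p. A log2 difference is the FHKO mean less the control mean of log2(value + 1), with the standard error (SE) of a limma fit over all 490 genes. In whole-culture RNA, more or fewer cells of a kind and more or less RNA per cell cannot be told apart.

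Slc16a6 encodes a protein of the monocarboxylate transporter family, whose members carry lactate, pyruvate, ketone bodies and related acids across membranes. In zebrafish its product is needed to export a ketone body from the liver. Its normalised counts were 80.0, 77.8 and 98.0 in control libraries 1 to 3 and 127, 184 and 163 in FHKO libraries 1 to 3. Every FHKO value lay above every control value, and FHKO library 2 was the highest. The means were 85.3 ± 11.1 (SD, n = 3) and 158 ± 28.7 (SD, n = 3), 1.85 times as high in FHKO. The log2 difference was 0.87 (SE 0.18), at the 95.7th percentile of all tested genes. These values rest on few molecules, from 55 counts in control library 1 to 221 in FHKO library 2. Counting error alone would give a coefficient of variation of 11.7% over the control libraries, and 13.02% was observed. In the FHKO libraries the observed 18.2% exceeded the 8.62% that counting gives. Without any 1 library the log2 difference lay between 0.76 and 1.02.

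Alas1 encodes the enzyme that starts haem synthesis in most tissues by joining glycine and succinyl-CoA, and it sets the rate of the pathway. Its normalised counts were 1355, 1062 and 1213 in control libraries 1 to 3 and 927, 1030 and 869 in FHKO libraries 1 to 3. The FHKO values all lay below the control values, although FHKO library 2 and control library 2 were close together. The means were 1210 ± 147 and 942 ± 81.7 (SD, n = 3), and the control mean was 1.28 times the FHKO mean. The log2 difference was -0.36 (SE 0.12), at the 2.24th percentile of all tested genes. Only Cd163, the scavenger receptor through which macrophages take up haemoglobin bound to haptoglobin, was analysed beside it from a list of 31 haem and iron genes. Cd163 had a log2 difference of -0.23 (SE 0.30) and missed the threshold (limma, adjusted p = 0.647). It averaged 28.5 in control and 24.0 in FHKO libraries, near the negative-control limit.

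G6pdx encodes glucose-6-phosphate dehydrogenase, which opens the oxidative branch of the pentose phosphate pathway and yields NADPH. Its normalised counts were 2269, 1976 and 1749 in control libraries 1 to 3 and 1600, 1620 and 1784 in FHKO libraries 1 to 3. The groups overlapped, since FHKO library 3 lay above control library 3. The means were 1998 ± 261 and 1668 ± 101 (SD, n = 3), and the log2 difference was -0.25 (SE 0.11). Without control library 1, which had the highest value, it was -0.16, and without control library 3 it was -0.35. The control spread of 13.1% was far above the 2.38% that counting error would give.

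NADPH from this pathway feeds the phagocyte oxidase and the thioredoxin and glutathione systems, and 6 other genes of a list of 30 in that field were tested. None passed in limma (adjusted p of 0.220 to 0.944), DESeq2 or edgeR, and 0 had an unadjusted p under 0.05. DESeq2 gave no adjusted p to Nox1 and Nos2. For the 6 genes the log2 differences had a median of 0.18, beside 0.16 for all tested genes. That median lies between Nos2 (0.16) and Nox1 (0.20), both low in counts. Nos2, at 11.4 to 27.6, was above the negative-control limit in control library 1 only. Nox1, at 21.8 to 53.3, was below that limit in control library 1. Nothing is therefore read from the median of the 6. Txn1, the gene of thioredoxin, had 0.46 (SE 0.20) and Cybb, the catalytic subunit of the oxidase, had 0.44 (SE 0.26). Cybb ranged from 2637 to 4852 in control and from 3889 to 6480 in FHKO libraries. With library medians set equal the differences of Txn1 and Cybb were 0.17 and 0.14.

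Hprt encodes the salvage enzyme that turns hypoxanthine and guanine back into purine nucleotides. Its normalised counts were 116, 191 and 246 in control libraries 1 to 3 and 253, 304 and 256 in FHKO libraries 1 to 3. The FHKO values lay above the control values, but control library 3 fell just short of FHKO library 1, and control library 1 stood far below the rest. The means were 184 ± 64.9 and 271 ± 28.5 (SD, n = 3), and the log2 difference was 0.61 (SE 0.26). Without control library 1 it dropped to 0.32, and without control library 3 it was 0.85. Within the control group the highest value was 2.11 times the lowest. The control coefficient of variation was 35.2%, against 8.50% from counting error. Of 25 listed genes of purine metabolism and adenosine signalling 3 others were measured and only Adora3, an adenosine receptor gene, was tested. Adora3 had a log2 difference of -0.14 (SE 0.19; limma, adjusted p = 0.667), with means of 23.8 in control and 21.6 in FHKO libraries, at the negative-control limit.

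Sdha encodes the flavoprotein subunit of succinate dehydrogenase, which works both in the citric acid cycle and as complex II of the respiratory chain. Its normalised counts were 1195, 1153 and 1256 in control libraries 1 to 3 and 1160, 1197 and 1232 in FHKO libraries 1 to 3. The groups lay on top of each other, with the highest and the lowest value both in control. The means were 1202 ± 52.0 and 1196 ± 36.1 (SD, n = 3), and the log2 difference was -0.01 (SE 0.081). Its spread was close to counting error, at 4.33% against 3.08% in control and 3.02% against 3.05% in FHKO libraries. The within-group SD of 0.054 on the log2 scale was at the 4.08th percentile of the tested genes. Although Sdha was this steady, it was not among the genes used for the scaling. Acod1, which makes itaconate, an inhibitor of succinate dehydrogenase, was the only other measured gene of a list of 32 on the citric acid cycle and respiration, and it did not pass the filter on low values.

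Gusb encodes beta-glucuronidase, a lysosomal hydrolase that takes part in the breakdown of glycosaminoglycans. Its normalised counts were 5397, 4601 and 4509 in control libraries 1 to 3 and 4305, 4426 and 4639 in FHKO libraries 1 to 3. Control library 1 stood above the other 5, and those overlapped. The means were 4836 ± 488 and 4457 ± 169 (SD, n = 3), and the log2 difference was -0.11 (SE 0.092). Without control library 1 it was -0.03. Of 8 other lysosomal genes tested from a list of 31, none passed in limma or edgeR, and 1 was lower at an unadjusted p under 0.05 (3.47% lower over all tested genes). That gene was Ctsd, of an aspartic protease, with -0.26 (SE 0.085; limma, adjusted p = 0.148), and DESeq2 called it lower (adjusted p = 0.048, with 6.73% of all tested genes called). With library medians set equal Ctsd had -0.56 (limma, adjusted p = 0.0646). Ctss, a cysteine protease gene, and Man2b1, the gene of lysosomal alpha-mannosidase, had 0.28 (SE 0.16) and 0.13 (SE 0.094), and these turned to -0.02 and -0.17 with library medians set equal. The median of the 8 genes was 0.06, beside 0.16 for all tested genes.

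**Figure D1:**
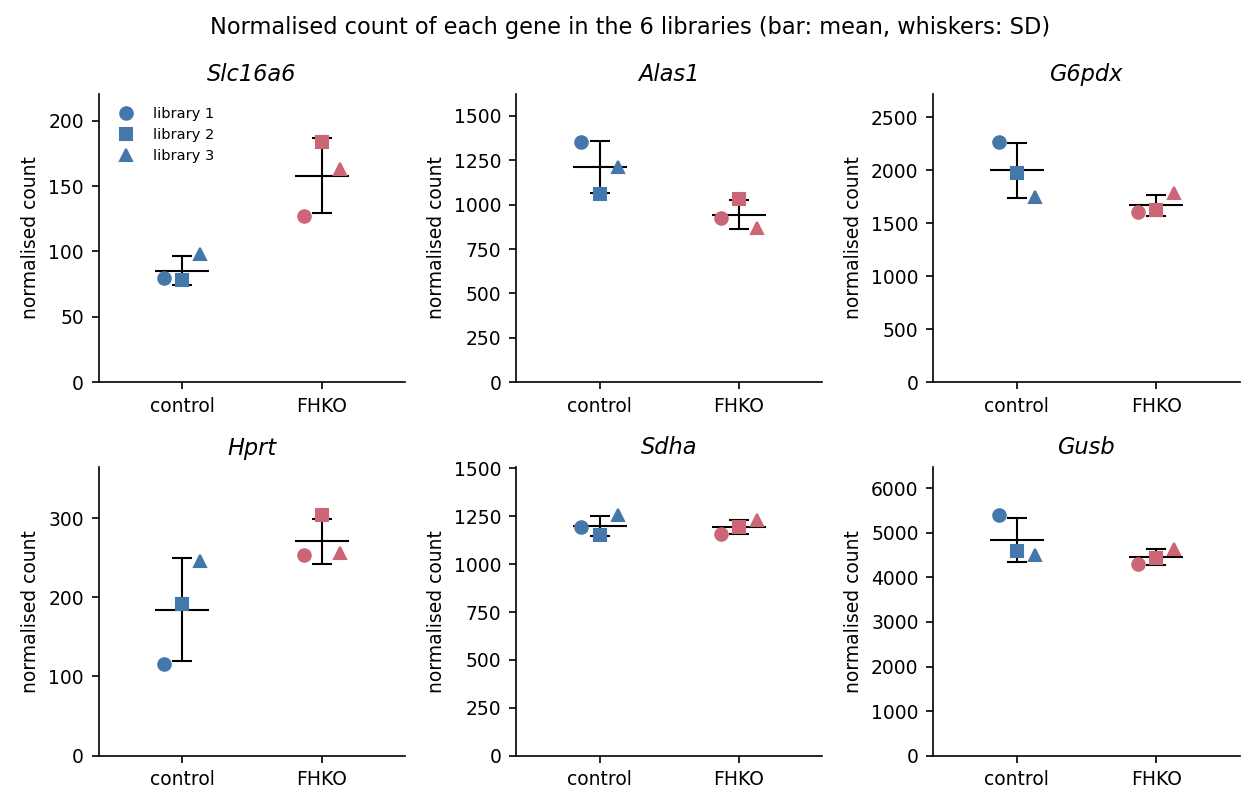
Normalised count of each of the 6 genes (vertical axes, from 0) in the 3 control and 3 FHKO libraries (horizontal axis), with symbols for library numbers, a bar at the group mean and whiskers of 1 SD. The groups are apart for Slc16a6, Alas1 and Hprt and overlap for G6pdx, Sdha and Gusb, and control library 1 is low for Hprt and high for Alas1, G6pdx and Gusb.

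In 3 of the 6 genes the groups did not overlap, Slc16a6 and Hprt with higher and Alas1 with lower FHKO values. Over all tested genes this was so for 29.2%, with 22.9% higher and 6.33% lower. In limma 0 of the 6 passed an adjusted p of 0.05, beside 0.204% of all tested genes (1 of 490). At an unadjusted p under 0.05 there were 3 of the 6, beside 22.4% of all tested genes (19.0% higher and 3.47% lower). In edgeR 0 of the 6 passed (0.204% of all tested genes), and in DESeq2 2 passed, Slc16a6 and Alas1 (6.73% of all tested genes). Both fits set their own library factors, and the median gene was at 0.03 in edgeR and 0.02 in DESeq2, beside 0.16 with the deposited scaling. In DESeq2 Slc16a6 was at 0.75 and Alas1 at -0.50. Since the same comparison was in view when the genes were chosen, nothing is read from these counts.

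The 6 genes did not move as a block. Their median log2 difference was -0.06, with 2 above 0, while the 490 tested genes had a median of 0.16 with 71.8% above 0. Relative to the median gene, Slc16a6 stood at 0.71, Hprt at 0.46, Sdha at -0.16, Gusb at -0.27, G6pdx at -0.41 and Alas1 at -0.52. G6pdx and Hprt both lie on chromosome X and differed in opposite directions. The 13 other tested genes on that chromosome had a median of 0.20, with 12 above 0 and 0 past limma's threshold.

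A gene that sets the scale is pulled towards no change by it, which touches Alas1 and Hprt directly and the other 4 through the factors. The scaling genes were inferred from the values, by a search over subsets of the panel's 20 reference genes. In that search the libraries had an all but equal geometric mean of 16 of them. Alas1 and Hprt belong to those 16, and G6pdx, Sdha and Gusb, with the tubulin gene Tubb5, make up the 4 left out. Over the 6 libraries Hprt had the widest range of the 16 (1.38 on the log2 scale) and Alas1 the next (0.64), against a median of 0.36. Among the 16, Alas1 also had the lowest log2 difference and Hprt the highest. The other end of the range was Oaz1, of ornithine decarboxylase antizyme, with 0.05.

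Both genes pulled the factors in opposite directions. Without Hprt among the scaling genes, values of control library 1 would be lower by a log2 shift of -0.06 and those of FHKO library 2 higher by 0.03, and every FHKO minus control difference would rise by 0.04. Without Alas1 every difference would shift by -0.02. Without both, the shifts per library lay between -0.04 and 0.03, and the differences rose by 0.02. Slc16a6 was then at 0.89, Hprt at 0.63, Alas1 at -0.34, G6pdx at -0.24, Gusb at -0.10 and Sdha at 0.01. Their own part in the scaling thus moved each difference of the 6 genes by less than its SE.

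**Figure D2:**
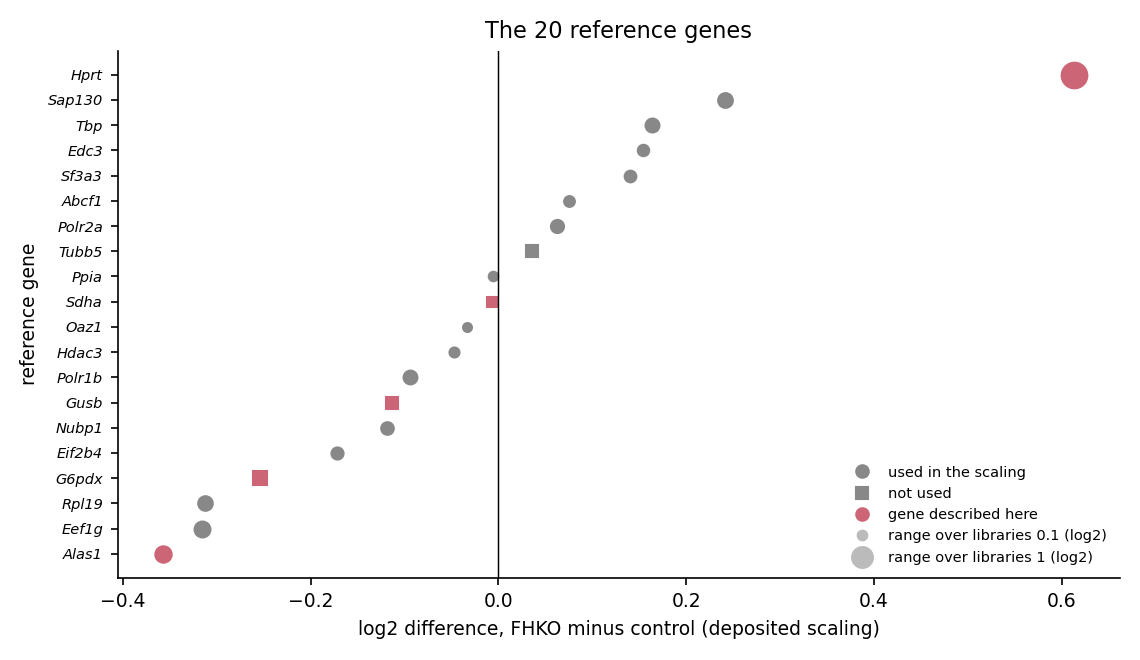
Log2 difference, FHKO minus control, of the 20 reference genes (horizontal axis; genes in order of the difference on the vertical axis), as circles for the 16 used in the scaling and squares for the 4 not used, with a marker size that grows with the log2 range over the 6 libraries. Alas1 and Hprt stand at the ends with -0.36 and 0.61, and Hprt has the widest range.

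Larger shifts came from scalings that do not rest on these genes. With library medians of the tested genes set equal, Slc16a6 had 0.58, Hprt 0.32, Sdha -0.30, Gusb -0.41, G6pdx -0.55 and Alas1 -0.65, and the median gene moved from 0.16 to -0.13. In that fit Alas1 alone of the 6 passed an adjusted p of 0.05, beside 2.86% of all tested genes. Since the gene was chosen with the comparison in view, nothing is read from that call. After quantile normalisation Slc16a6 had 0.58, Hprt 0.35, Sdha -0.17, Gusb -0.13, G6pdx -0.36 and Alas1 -0.49. Scaling by the 4 unused reference genes, 3 of which are described here, gave 0.96, 0.70, 0.08, -0.03, -0.17 and -0.27 in the same order. The signs of Slc16a6, Hprt, Alas1, G6pdx and Gusb were the same in all 21 alternatives run for each. These include the replicate block, the other filters and the fit without intensity trend, which cannot change a difference. The other pseudocounts and the scalings without Alas1, Hprt or both shifted the differences too little to turn these signs. The sign of Sdha changed in 6 of 21. Sdha therefore had no settled direction. Gusb kept its sign, but its difference was smaller than its SE with the 4 unused reference genes (-0.03, SE 0.061). The same held without control library 1 (-0.03, SE 0.070), so its direction was not settled either.

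**Figure D3:**
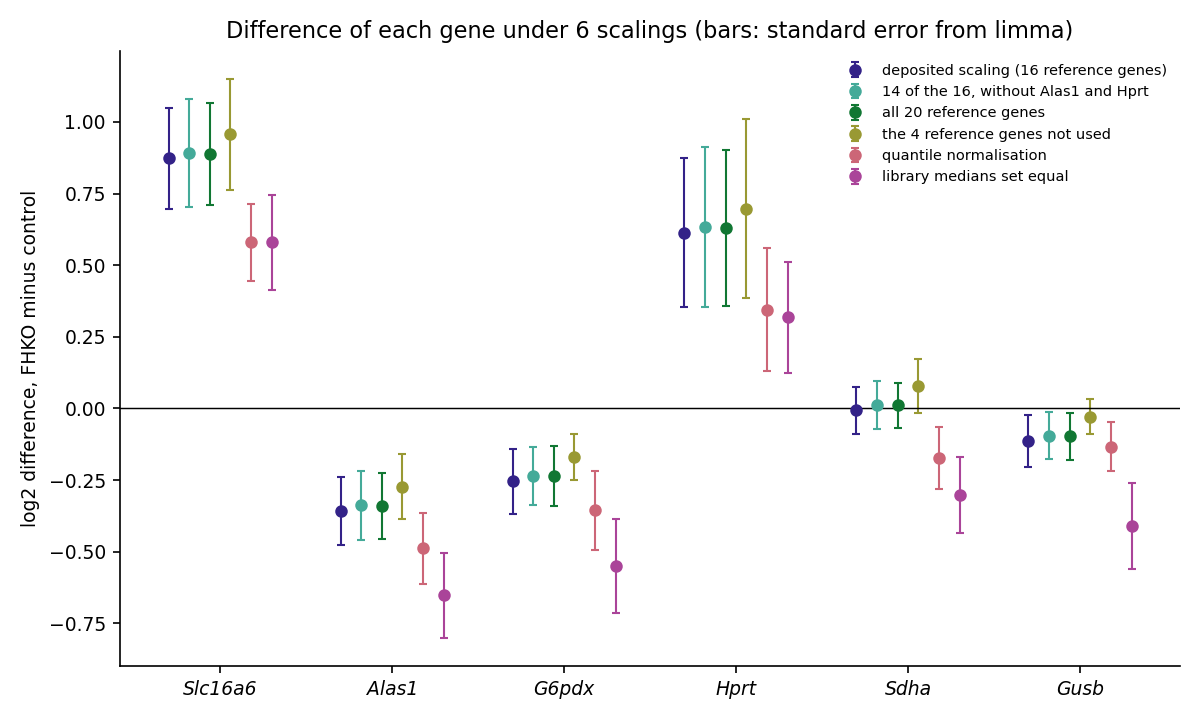
Log2 difference, FHKO minus control (vertical axis), of each of the 6 genes (horizontal axis) under 6 scalings shown in colour, with bars of 1 standard error from limma. Slc16a6 stays between 0.58 and 0.96 and Sdha crosses 0.

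Ratios between the genes within a library are free of any factor. Only the change of a ratio is interpreted, since the level of a ratio also holds the capture of each probe. Against Sdha, Slc16a6 was higher in FHKO libraries by 0.89 on the log2 scale, from a control mean of -3.82 ± 0.12 to -2.94 ± 0.24 (SD, n = 3), and the groups did not overlap. Against Alas1, G6pdx and Gusb it was higher by 1.24, 1.13 and 0.99, again without overlap. Against Hprt the difference was 0.26 and the groups overlapped, because control library 1 had the highest ratio of all, with its low Hprt value. Without control library 1 that difference was 0.52, and without control library 3 it was 0.13.

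The ratio of Hprt to Sdha was higher in FHKO libraries by 0.62, and 0.33 without control library 1. Alas1 was lower against Sdha by a log2 difference of -0.35 and against Hprt by -0.97, the second -0.59 without control library 1, and both without overlap. Alas1 against G6pdx overlapped, with -0.10, and stood at 0.00 without FHKO library 3 and -0.01 without control library 3. G6pdx was lower against Gusb by -0.14, with control SD of 0.08 and FHKO SD of 0.04 (n = 3), a small difference between groups that did not overlap. Sdha against Gusb overlapped, with 0.11, or 0.02 without control library 1. Of the 15 pairs 10 had groups that did not overlap, while over all pairs of tested genes the share was 25.4%. The pairs share genes, and 3 of the 6 genes were separate at the start, so the 10 are not independent.

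**Figure D4:**
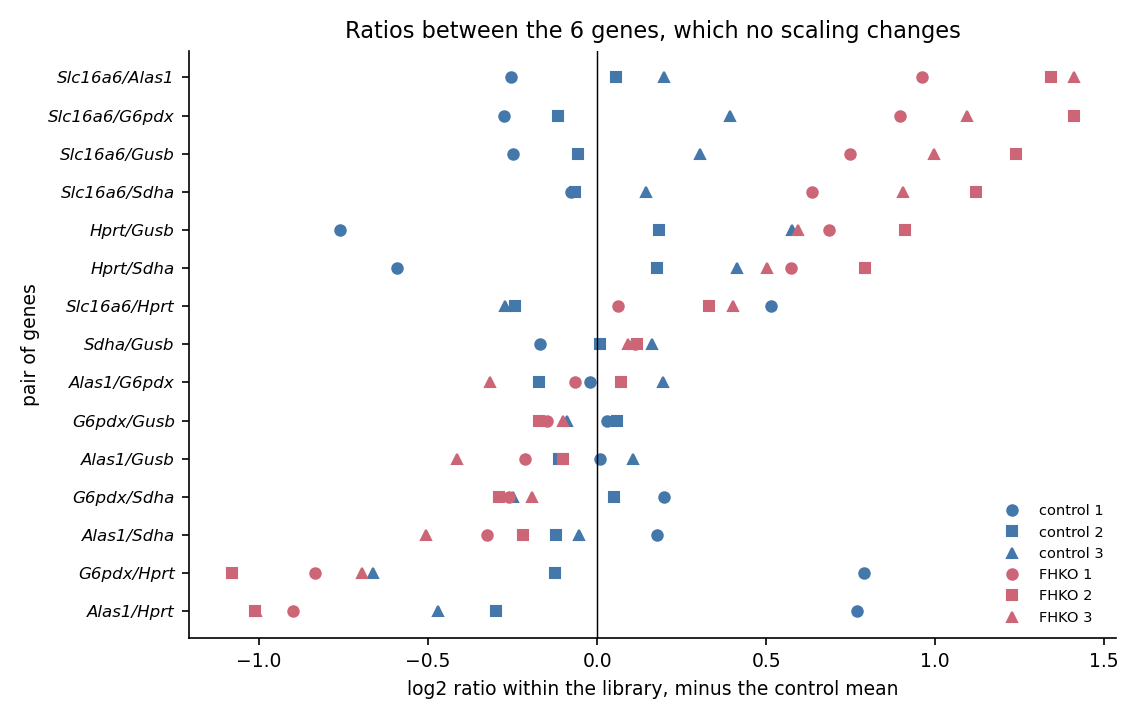
Log2 ratio of each of the 15 pairs of genes within a library, minus the mean of the 3 control libraries (horizontal axis), with pairs on the vertical axis, colours for the groups and symbols for library numbers. The 4 ratios of Slc16a6 to Alas1, G6pdx, Gusb and Sdha show no overlap between groups, and control library 1 lies far from the other controls in most pairs with Hprt.

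The libraries did not stand in the same order for all genes. Control library 1 held the highest value of the 6 libraries for Alas1, G6pdx and Gusb and the lowest for Hprt, and a middle value for Sdha. FHKO library 2 held the highest value for Slc16a6 and Hprt. Recovered counts summed to 725234 in control library 1 and 1348064 in FHKO library 2, and the part of depth in these positions was not tested. FHKO library 1, with a sum of 717503, had the lowest G6pdx and Gusb values.

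Genes with the most similar profile were looked up by the root mean square distance between log2 profiles over the 6 libraries, each centred on its own mean. The profile includes the difference between the groups, so likeness in part restates it. For Slc16a6 the closest of 484 genes were Klf4, Sp4 and Hivep1, all of transcription factors, at distances of 0.11, 0.13 and 0.13, against a median of 0.42. Sp4 was at 18.2 to 29.5 in control libraries, near the negative-control limit. For Hprt, close profiles were those of the sphingosine-1-phosphate phosphatase gene Sgpp1 (0.097) and of Bcl2 (0.12), the last also near that limit in control library 1. Sgpp1 had 243, 346 and 428 in control and 424, 548 and 457 in FHKO libraries 1 to 3, with control library 1 lowest as for Hprt.

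For Alas1 the closest profiles were those of Atf3, a stress-response transcription factor gene (0.061), the integrin gene Itgax (0.084) and the cell cycle inhibitor gene Cdkn1a (0.086). For G6pdx they were Ctsd (0.052), the tubulin gene Tuba1a (0.054) and Adamts2 (0.055). Adamts2 had 17.5 to 24.7 over all libraries, below the negative-control limit in control library 3 and in every FHKO library. Gusb was closest to the chaperone gene Calr (0.025), the lysosomal glycoprotein gene Cd68 (0.033) and Crip1 (0.047). Sdha was closest to Irf8, Was and Oaz1 (0.043 to 0.045), all with little change over the libraries. Flat profiles lie close together by this measure, so small distances for Sdha and Gusb are partly set by their narrow range.

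**Figure D5:**
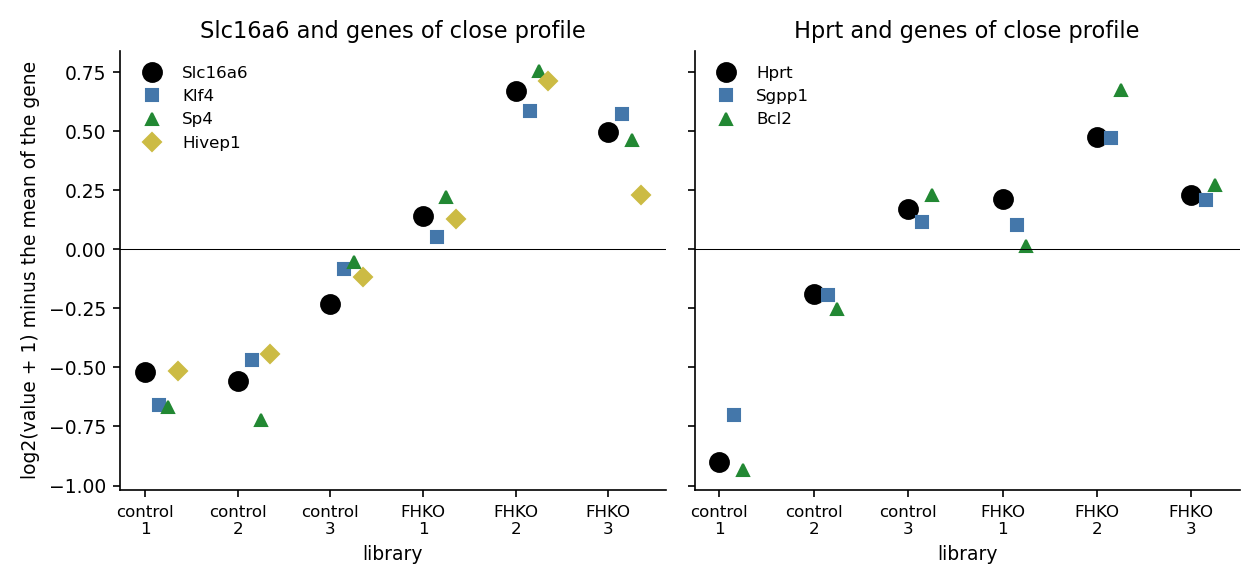
Log2(value + 1) minus the mean of the gene (vertical axis) in the 6 libraries (horizontal axis) for Slc16a6 and Hprt, in black, with 3 genes of close profile for Slc16a6 and 2 for Hprt in colour. Control libraries 1 and 2 are low for Slc16a6 and its neighbours, and control library 1 alone is lowest for Hprt and its neighbours.

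The sequences before the starts of Hprt and Alas1, the members that took part in the scaling, are printed from RefSeq on build GRCm38.p6, 250 bases 5′ to 3′ on the strand of the gene. Hprt is chrX:52987828-52988077 on the plus strand and Alas1 chr9:106247955-106248204 on the minus strand. Capitals mark the GC box letters GGGCGG, or their reverse complement, the motif of the general activator Sp1.
Hprt: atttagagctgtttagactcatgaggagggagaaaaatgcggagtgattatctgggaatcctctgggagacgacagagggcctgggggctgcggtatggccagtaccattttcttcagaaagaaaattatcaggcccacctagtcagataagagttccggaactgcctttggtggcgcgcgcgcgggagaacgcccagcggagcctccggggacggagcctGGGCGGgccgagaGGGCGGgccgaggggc
Alas1: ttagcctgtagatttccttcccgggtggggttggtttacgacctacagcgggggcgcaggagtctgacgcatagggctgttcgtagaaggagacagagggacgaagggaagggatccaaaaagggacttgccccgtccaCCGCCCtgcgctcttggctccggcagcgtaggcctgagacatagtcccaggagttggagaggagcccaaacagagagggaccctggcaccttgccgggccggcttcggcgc

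Windows of this kind were matched by symbol for 5 of the 6 genes. Searched on both strands, the GC box occurred at 2 places for Hprt, 1 for Alas1 and 1 for G6pdx, and in 32.7% of all 32851 windows. The letters TATAAA, the core of a TATA box, were in none of the 5, and in 12.4% of all windows. CCAAT was in the window of Sdha only, and in 33.8% of all windows. CG pairs numbered 21 for Sdha, 17 for Hprt, 16 for Alas1, 15 for G6pdx and 3 for Gusb, against a median of 6 over all windows. A second annotated start of Alas1 had 42 CG pairs. These matches describe the letters and say nothing of binding in these cells.

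Beyond these 6, 2 lists remained. Both tested genes of a list of 25 on glycolysis and hypoxia lay above 0, Hif1a, of an oxygen-regulated transcription factor, at 0.75 (SE 0.32) and Vegfa, of a growth factor, at 0.32 (SE 0.23). Neither passed (limma, adjusted p of 0.217 and 0.407), Hif1a had an unadjusted p under 0.05, and DESeq2 and edgeR called neither. Setting library medians equal gave 0.46 and 0.02. Of the 15 other reference genes, 0 passed in limma or edgeR and 2 were lower at an unadjusted p under 0.05 (3.47% lower over all tested genes). These were Rpl19, of a ribosomal protein, at -0.31 (SE 0.092) and Eef1g, of a translation elongation factor, at -0.32 (SE 0.13), and both had -0.61 when library medians were set equal. DESeq2 called Rpl19 lower (adjusted p = 0.045). Sap130, of a histone deacetylase complex, was next with 0.24 (SE 0.14), or -0.05 when library medians were set equal. Over all lists, 33 other genes were tested, 0 passed in limma, 4 had an unadjusted p under 0.05 (1 higher, 3 lower), edgeR called 0 and DESeq2 called 2. Over all tested genes the shares were 22.4% at an unadjusted p under 0.05 (19.0% higher, 3.47% lower), 0.204% in limma and in edgeR and 6.73% in DESeq2.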

How the data were processed

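RNA of 6 libraries, 3 control and 3 FHKO, grouped by sample title, was analysed from 1 table of 753 gene rows and 14 control rows. The deposited values are a normalised signal; platform, software and processing steps are not given in the sources used here. From the values, 99.6% of gene values were whole multiples of 1 step per library within 0.0051, which gave the counts, and 5 values at exactly 1 were taken as 1 count. In control library 2 and FHKO library 2, with factors of 1.01 and 0.832, a simpler search over the whole column, control rows and floor included, does not find the step, so their counts rest on the gene rows above 1 (99.3% and 99.6% of all gene values were whole). Recovered counts covered 717503 to 1348064 per library. The scaling genes were inferred by a search over 21700 large subsets of the 20 reference genes for the most equal geometric mean over the libraries. The SD of the mean log2 value was 6.82e-06 for the 16 genes found and 0.00135 for the next subset. No replicates looked like 1 library deposited again (chi-square of the counts over its degrees of freedom, 12.9 to 49.1), so each counted separately.

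Genes at 20 or more in at least 3 libraries (490) were fitted as log2(value + 1) with limma 3.58.1 (eBayes with intensity trend) in R 4.3.3, two-sided, with Benjamini-Hochberg adjustment over all of them at 0.05. Alternatives were other scalings, filters, pseudocounts, a replicate block, leaving out each library, and, on recovered counts, edgeR 4.0.16 (quasi-likelihood, TMM) and DESeq2 1.42.0. After seeing the data, scalings that leave out Hprt or Alas1 alone were added. The code was also run on simulated counts with the same dispersion for all genes, and no result here rests on that run. The members and lists were chosen with earlier results of these data known. From each list the 3 other tested genes of smallest p were named, and for each member the 3 closest profiles; some genes that these rules name are not reported here. Symbols and sequences came from RefSeq on GRCm38.p6 (743 symbols matched directly, 9 by synonym). Intervals from counts cover counting error only.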

Additional observations from a re-analysis of the deposited data

How the results depend on the processing

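The number of genes past limma's threshold was 1 of 490 with the deposited scaling and 1 under 11 alternatives, among them quantile normalisation, other pseudocounts and filters and edgeR. It was 14 with library medians set equal (4 higher, 10 lower), 33 in DESeq2 (19 higher, 14 lower), 0 with the 4 unused reference genes set equal, and 0 in the fit with the replicate block. Dropping the libraries singly gave 0 to 3 calls, the 3 without FHKO library 2, and none of them was of the 6 genes. The labels do not say that replicate numbers pair the libraries, so the block is given only here. Same-numbered libraries had correlations of their deviations from the group means of 0.26, -0.03 and -0.29. With 3 libraries per group these cannot settle whether the libraries are paired. Of 126 values of the 6 genes under alternatives, 114 moved by less than 1 within-group SD. This count is no measure of stability. Leaving out 1 of 3 libraries cannot move a value that far. The replicate block, the other filters and the fit without intensity trend leave every value unchanged. The 12 that moved further were of Slc16a6, Alas1, G6pdx, Sdha and Gusb, under median scaling, quantile normalisation, the 4 unused reference genes, edgeR or DESeq2. The 90 ratios with 1 library left out all moved by less than 1 within-group SD. With 3 libraries per group they could not have moved further, so nothing is read from this. Slc16a6, with 55 to 221 counts per library, is the gene whose precision counting limits most.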
